A study of Arabidopsis thaliana with 20 samples.

Results

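Transcript levels in Arabidopsis thaliana cpd roots were compared between grafts that carried a cpd shoot and grafts that carried a Col-0 wild type (WT) shoot. The comparison took 10 of the 20 libraries of the series: 5 of cpd/cpd and 5 of WT/cpd, named shoot first. All genes were considered, and 20862 of the 32833 gene codes in the table passed the filter on low counts and were tested. cpd is a mutant of CPD (AT5G05690), which encodes a cytochrome P450 of brassinosteroid synthesis. Roots of both groups were therefore cpd, and the groups differed in the genotype of the shoot. The other 2 groups, WT/WT and cpd/WT, put the same 2 shoots on WT roots and served as a second setting of the same contrast. That setting used separate libraries, but all 20 were fitted together with a shared estimate of each gene's spread. Every library was made from a pool of 3 whole roots. Titles of the other 3 groups say Grafted and those of cpd/cpd do not, whereas the design text counts cpd/cpd among the grafted combinations. An effect of grafting itself and one of shoot genotype cannot be told apart here if cpd/cpd was not grafted. The labels state neither a treatment nor the age of the plants.

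Brassinosteroids are plant steroid hormones that promote cell elongation and division, and mutants that cannot make them are dwarfs with short roots. Their active forms are thought to act close to where they are made, so a root's supply depends mostly on its own synthesis. The shoot reaches the root by other means, through sugars and auxin moved in the phloem and through peptides, RNAs and ions. The contrast therefore asks what a brassinosteroid-deficient root expresses differently when its shoot is deficient too.

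Total counts ran from 13417029 to 29662209 in WT/cpd and from 22979686 to 32337043 in cpd/cpd. WT/cpd replicate 1 was the shallowest library. CPD itself lay between 2.3 and 4.47 CPM (counts scaled to a common library size after TMM correction) in the 10 cpd-root libraries, against group means of 45.5 CPM under a WT shoot and 40.9 CPM under a cpd shoot on WT roots. All 25 root tissue markers examined, from root cap to xylem, were detected in each of the 10 libraries, and 0 were called as higher or lower. Over all genes tested 4.66% were called, so 0 of 25 is close to that share. The log2 differences of the markers ranged from -0.31 for the root cap gene BRN1 to 0.45 for the endodermis gene CASP4. Plastid genes took 0.0583% to 0.0706% of counts in WT/cpd and 0.0558% to 0.0884% in cpd/cpd. In bulk roots, fewer cells of a type and less RNA per cell cannot be told apart. WT/cpd replicate 2 and cpd/cpd replicate 4 correlated least with their own groups (mean r across genes 0.965 and 0.974). Both lay at the negative end of the first principal component, which held 36.8% of the variance, and WT/cpd replicate 1 lay at the positive end.

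Cpd roots differed between the shoots in 973 genes, or 4.66% of those tested, at an adjusted p under 0.05 in edgeR's quasi-likelihood test with Benjamini-Hochberg adjustment. Under a cpd shoot 677 genes (3.25%) were lower and 296 (1.42%) were higher. The falls were also the larger changes, with a median of 0.89 on the log2 scale against 0.44 for the rises, and 294 of the falls (1.41% of genes tested) but 28 of the rises (0.134%) reached 1 on that scale. Over all genes tested the median difference was 0.022. The 5 and 5 values did not overlap for 1029 genes (4.93%), 523 lower (2.51%) and 506 higher (2.43%), and 531 of these (2.55% of genes tested) were among the 973 called. The lower genes varied more within the WT/cpd group, where the median SD of their log2 CPM was 0.388, than within cpd/cpd (0.232). WT/cpd replicate 1 lay on average 0.54 above its group's mean over these genes on the log2 scale, and replicate 2 fell below it by 0.66. The number of calls dropped to 455 without WT/cpd replicate 1 and rose to 1250 without WT/cpd replicate 2. It was 569 without WT/cpd replicate 3. Leaving out replicate 1, 3 or 5 of cpd/cpd gave 485, 449 or 520 calls. limma with sample weights, added after seeing the data, called 4272 genes, of which 43.6% were lower against 69.6% in edgeR.

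**Figure D1:**
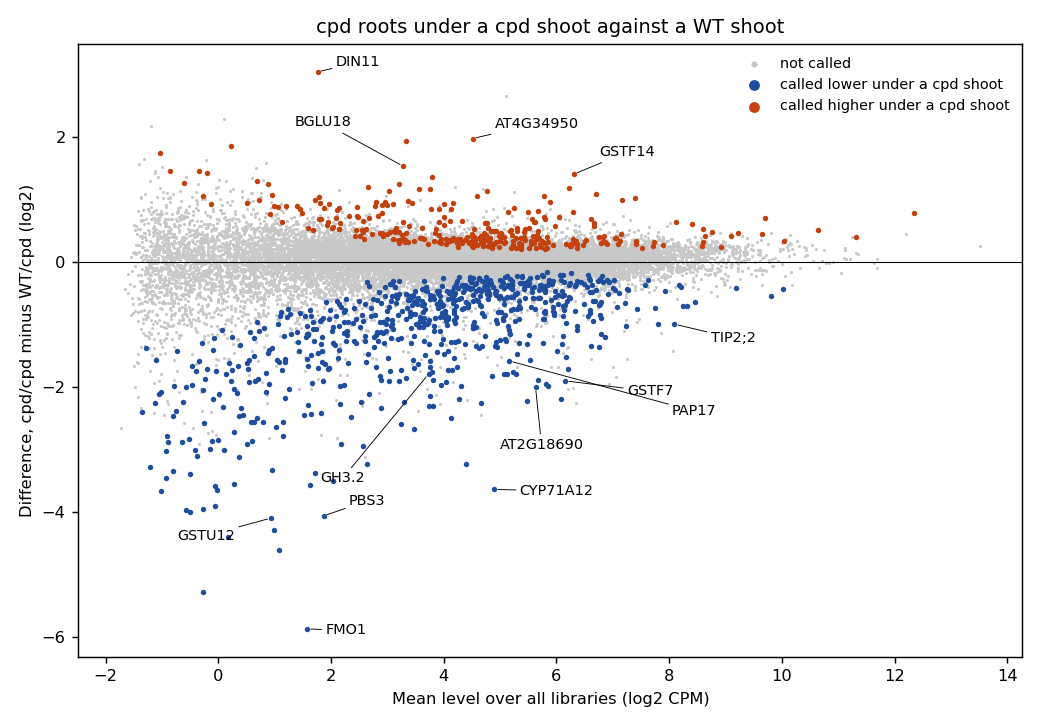
Difference between cpd/cpd and WT/cpd (log2, vertical axis) against the mean level over all libraries (log2 CPM, horizontal axis) for 20862 tested genes, one point per gene. The 677 genes called lower (blue) reach further from 0 than the 296 called higher (orange), and the named genes are those described in the text.

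Among the falls were immune genes of the salicylate pathway. This list holds genes that make salicylate and N-hydroxypipecolate, signals of plant immunity, and genes that relay them. Of 13 tested members 7 fell and 0 rose, against 3.25% of all genes called lower, and the median difference of the list was -1.56. FMO1 (AT1G19250), which makes N-hydroxypipecolate, had 12.5, 0.129, 5.52, 8.07 and 22.5 CPM in WT/cpd replicates 1 to 5 and 0.220, 0.125, 0.149, 0.0867 and 0.216 CPM in cpd/cpd. WT/cpd replicate 2 lay at the level of the cpd/cpd libraries and the other 4 WT/cpd libraries lay far above them. The log2 difference of FMO1 was -5.87 ± 0.93 (SE, adjusted p = 0.00300). PBS3 (AT5G13320), which joins glutamate to isochorismate on the way to salicylate, was low in the same WT/cpd library, with 24.8, 0.30, 6.25, 11.2 and 18.1 CPM in WT/cpd and 0.785, 1.0, 0.780, 0.303 and 0.692 CPM in cpd/cpd (log2 difference -4.06 ± 0.77, adjusted p = 0.00679).

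PAD4 (AT3G52430), a lipase-like regulator of this pathway, separated the groups without overlap. It had 86.1, 35.8, 48.4, 44.6 and 55.3 CPM in WT/cpd and 26.1, 33.2, 26.8, 28.3 and 24.5 CPM in cpd/cpd, a log2 difference of -0.95 ± 0.17 (adjusted p = 0.00459). CBP60G (AT5G26920), a calmodulin-binding transcription factor that switches on salicylate synthesis, fell by 1.70 ± 0.31 (adjusted p = 0.00508). Its groups overlapped through WT/cpd replicate 2, at 5.14 CPM, while the highest cpd/cpd library was at 7.55 CPM. The other 3 called members, ALD1, the first enzyme of pipecolate synthesis, EDS1, the partner of PAD4, and WRKY70, a transcription factor downstream of salicylate, were named after their values were seen. They fell by 2.57, 0.45 and 1.98 on the log2 scale. Between 5 and 10 of the 13 members fell in each of the 17 alternatives tried, with 10 without WT/cpd replicate 2.

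Camalexin genes fell in part as well. Camalexin is an indolic antimicrobial compound. Of 5 tested genes of its branch 2 fell (40%, against 3.25% of all genes), here and in all 17 alternatives. CYP71A12 (AT2G30750), a cytochrome P450 that acts on indole acetaldoxime, showed the largest fall among the genes named by size. It had 177, 18.9, 20.3, 64.6 and 145 CPM in WT/cpd and 5.02, 9.51, 4.87, 5.89 and 8.95 CPM in cpd/cpd. The spread within WT/cpd was wide, yet its lowest library lay above the highest of cpd/cpd, and the log2 difference was -3.64 ± 0.74 (adjusted p = 0.00906). A copy at AT1G11610 is 90.9% identical to CYP71A12, so reads may have been split between them. PAD3 (AT3G26830), the last enzyme of camalexin synthesis, went from 16.9 ± 5.99 to 8.48 ± 0.705 CPM (SD, n = 5 each) and fell by 0.99 ± 0.18 (adjusted p = 0.00578).

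WRKY proteins are transcription factors that bind the W-box, a short promoter element, in defence and stress responses. Of 18 tested members of the stress-related list 10 fell (55.6%, against 3.25% of all genes) and 0 rose, with a median of -0.80. WRKY6 (AT1G62300) had 96.4, 74.1, 83.4, 74.4 and 75.1 CPM in WT/cpd and 56.6, 59.2, 55.9, 47.9 and 58.7 CPM in cpd/cpd, so that its groups did not overlap although the change was small (-0.53 ± 0.09, adjusted p = 0.00459). WRKY28 (AT4G18170), WRKY22 (AT4G01250) and WRKY45 (AT3G01970) fell (log2 differences -1.12, -1.20 and -0.82, adjusted p = 0.00815, 0.0135 and 0.0142), each with no overlap between the groups. WRKY28 missed the threshold when the 10 libraries were fitted alone (adjusted p = 0.0566). The count of WRKY genes that fell was 5 without WT/cpd replicate 1, 13 without WT/cpd replicate 2, 6 without WT/cpd replicate 3 and 5 without WT/cpd replicate 5. With replicate 1, 3 or 5 of cpd/cpd left out it was 4, 4 or 5.

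Glutathione transferases, which join glutathione to toxic or reactive compounds, changed in both directions. The class phi and tau genes were taken as a family after their values were seen, and of 38 tested members 8 fell and 1 rose, against 3.25% and 1.42% of all genes. GSTF7 (AT1G02920) had 192, 69.6, 72.3, 123 and 226 CPM in WT/cpd and 27.9, 35.4, 35, 44.0 and 40.3 CPM in cpd/cpd. Replicates 1, 4 and 5 of WT/cpd were the highest, and all 5 lay above every cpd/cpd library (log2 difference -1.90 ± 0.29, adjusted p = 0.00297). A copy, GSTF6 (AT1G02930), is 92.6% identical, so the share of each gene is uncertain. GSTU12 (AT1G69920) fell by 4.1 ± 0.66, from between 1.07 and 7.53 CPM to at most 0.476 CPM (adjusted p = 0.00348). GSTU10 (AT1G74590), which shares bases with a pair of neighbouring genes, fell by 1.31 ± 0.19 (adjusted p = 0.00170). The riser was GSTF14 (AT1G49860), with 29.3, 64.7, 32.0, 38.3 and 26.3 CPM in WT/cpd and 74.3, 129, 91.8, 91.2 and 118 CPM in cpd/cpd (1.4 ± 0.24, adjusted p = 0.00459).

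The promoters of 3 genes that fell are shown because each holds W-box matches. They are the 250 bases before the gene start, 5′ to 3′ on the gene's strand, from the RefSeq assembly TAIR10.1, and capitals mark TTGACC or TTGACT or their reverse complements. GSTF7 (chr1:659981-660230, minus strand) holds 3 matches, AT2G41640 (chr2:17360124-17360373, plus strand) holds 2 that adjoin, and GSTU12 (chr1:26335631-26335880, minus strand) holds 2.
GSTF7: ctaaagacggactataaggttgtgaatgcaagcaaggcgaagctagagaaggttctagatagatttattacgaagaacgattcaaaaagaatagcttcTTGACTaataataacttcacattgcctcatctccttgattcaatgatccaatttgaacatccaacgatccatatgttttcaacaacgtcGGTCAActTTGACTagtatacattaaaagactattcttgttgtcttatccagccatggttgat
AT2G41640: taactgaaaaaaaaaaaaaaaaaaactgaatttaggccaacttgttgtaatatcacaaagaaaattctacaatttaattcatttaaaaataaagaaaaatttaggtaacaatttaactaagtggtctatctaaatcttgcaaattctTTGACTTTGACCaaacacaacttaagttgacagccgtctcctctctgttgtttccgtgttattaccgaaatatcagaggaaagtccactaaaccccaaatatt
GSTU12: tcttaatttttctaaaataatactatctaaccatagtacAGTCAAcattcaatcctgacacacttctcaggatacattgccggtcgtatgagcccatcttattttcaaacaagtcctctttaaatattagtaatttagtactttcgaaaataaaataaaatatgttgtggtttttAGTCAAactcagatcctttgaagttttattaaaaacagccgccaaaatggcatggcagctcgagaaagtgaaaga

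A W-box, so spelled and on either strand, was found in the 250 bases before 309 of 672 protein-coding genes called lower (46.0%). It was found before 69 of 292 called higher and before 5807 of 20240 tested (28.7%). Among the 12 largest falls 8 had a match, and among the 12 largest rises 4. By list, 2 of 13 salicylate genes (15.4%), 1 of 5 camalexin genes (20%) and 8 of 18 WRKY genes (44.4%) had a match. Among the members called lower it was 1 of 7, 0 of 2 and 6 of 10. The core of the rapid stress response element, CGCGTT, was in 6.70% of the promoters of lower genes and 2.79% of all. The brassinosteroid response element, CGTGTG or CGTGCG, was in 6.25% and 7.05%. These shares are descriptions of the letters in these windows and no test was made of them.

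Rapid stress regulators were lower under a cpd shoot in the 8 members that passed the test, and all others lay in the same direction. These genes, among them ERF, CBF and ZAT transcription factors and touch-induced calmodulin-like proteins, respond within minutes to cold, wounding, touch or reactive oxygen in Arabidopsis. All 30 tested members had a difference below 0, with a median of -1.52, and 8 fell (26.7%, against 3.25% of all genes). The members shared the same libraries, so their common direction is not 30 separate observations. Their summed level was 4078 CPM in WT/cpd replicate 1, 758 CPM in replicate 2, and between 657 and 1571 CPM in cpd/cpd. WT/cpd replicate 2 therefore lay inside the range of cpd/cpd, and the other 4 WT/cpd libraries lay above it. PBP1 (AT5G54490), a calcium-binding partner of the kinase PINOID, had 26.3, 8.01, 21.9, 23.9 and 17.1 CPM in WT/cpd and 5.59, 8.26, 6.61, 4.25 and 6.66 CPM in cpd/cpd. It fell by 1.63 ± 0.37 (adjusted p = 0.0165), and it overlaps another annotated gene on the opposite strand. ZAT12 (RHL41, AT5G59820), a zinc finger regulator of oxidative stress responses, fell by 1.52 ± 0.35 (adjusted p = 0.0175). That call was lost without WT/cpd replicate 1 and without cpd/cpd replicate 5, with an adjusted p of 0.0521 and 0.0507. The zinc finger genes CZF1 (AT2G40140) and ZAT11 (AT2G37430) fell by 1.0 and 1.36, and both calls were lost in 4 of 17 alternatives.

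How many of these regulators fell depended on single libraries. A single regulator, 1 of 30, fell without WT/cpd replicate 1, and 24 fell without WT/cpd replicate 2. Without WT/cpd replicates 3 and 4 the count was 4 each. Leaving out replicate 1, 3, 4 or 5 of cpd/cpd gave 3, 4, 4 or 2. CML37 (AT5G42380), a calmodulin-like protein, illustrates the spread. It had 36.4, 0.557, 13, 25.6 and 10.5 CPM in WT/cpd and 4.37, 3.80, 2.90, 1.13 and 1.73 CPM in cpd/cpd, and its lowest value of all 10 libraries was in WT/cpd replicate 2. Its call (-2.59 ± 0.70, adjusted p = 0.0407) was lost in 12 of 17 alternatives, 8 of which left out 1 library. Jasmonate genes, which make or relay the wound hormone jasmonate, had a median of -0.38 over 22 members. Of these 22, 1 fell (4.55%, close to the 3.25% of all genes called lower), the repressor JAZ1 (AT1G19180, -1.34 ± 0.35, adjusted p = 0.0354). That call was lost in 10 of 17 alternatives.

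**Figure D2:**
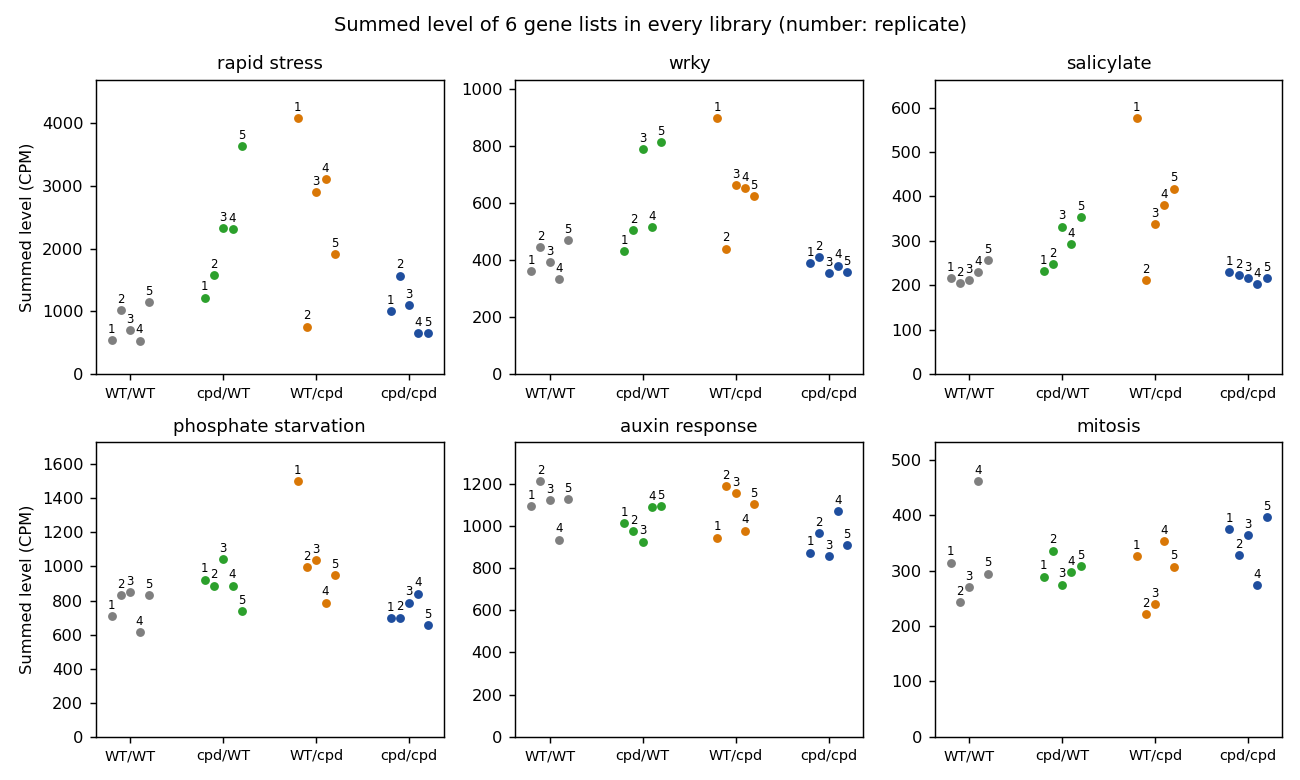
Summed CPM of 6 gene lists (vertical axes, from 0) in every library of the 4 groups, named shoot/root, with the replicate number above each point. In the rapid stress panel WT/cpd ranges from 758 (replicate 2) to 4078 CPM (replicate 1) and cpd/cpd from 657 to 1571 CPM, and in the salicylate panel cpd/cpd stays between 202 and 230.1 CPM.

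Phosphate starvation genes fell in part under a cpd shoot. This list holds transporters, phosphatases and lipid-remodelling enzymes that plants switch on when phosphate runs short. All 21 tested members had a difference below 0, with a median of -0.72, and 5 fell (23.8%, against 3.25% of all genes). PHT1;4 (AT2G38940), a root phosphate importer, had 102, 28.8, 52.0, 51.5 and 44.1 CPM in WT/cpd and 20.1, 19.2, 28.7, 19.7 and 21.1 CPM in cpd/cpd. Its lowest WT/cpd value lay just above its highest cpd/cpd value (-1.35 ± 0.23, adjusted p = 0.00459). PAP17 (AT3G17790), a secreted purple acid phosphatase, had 110.2, 36.5, 73.7, 56.0 and 68.6 CPM in WT/cpd and 22.9, 14.7, 28.8, 29.7 and 18.5 CPM in cpd/cpd, again with no overlap (-1.58 ± 0.28, adjusted p = 0.00459). It overlaps another gene on the opposite strand. SAL2 (AT5G64000), an inositol phosphatase family gene with overlapping neighbours, fell by 0.85 ± 0.16 (adjusted p = 0.00579).

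PPSPASE1 (AT1G73010), which splits pyrophosphate, fell by 1.97 ± 0.47 (adjusted p = 0.0219), from a WT/cpd range of 6.34 to 89.4 CPM to a cpd/cpd range of 4.42 to 11.3 CPM. Without WT/cpd replicate 1 its difference was -1.23 and the call was lost, as it was without cpd/cpd replicate 1. It was also lost when the 10 libraries were fitted alone (adjusted p = 0.0888). The fifth member was the organic cation transporter OCT1 (AT1G73220), named after its values were seen, which fell by 2.14. Without WT/cpd replicate 1 and without cpd/cpd replicate 1, 3 members fell. The count was 13, 10 and 8 without WT/cpd replicate 2, WT/cpd replicate 4 and cpd/cpd replicate 4. The phosphate transporter of the stele, PHO1, was not called (-0.20, adjusted p = 0.489), and the P1BS element GNATATNC, on either strand, was in the promoters of 7 of the 21 members (33.3%) and 1 of the 5 that fell. It was in 6.99% of promoters of all lower genes and 5.45% of all.

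Auxin-conjugating enzymes of the GH3 family fell, and one of them had the smallest adjusted p of the comparison. GH3 enzymes join auxin to amino acids and are switched on by auxin, so they both report and limit the hormone. GH3.2 (BRU6, AT4G37390), ranked first of all 20862 genes by adjusted p, had 22.4, 21.0, 22.2, 20.8 and 24 CPM in WT/cpd, a narrow range, and 4.81, 6.42, 4.01, 8.24 and 8.52 CPM in cpd/cpd, with a wide gap between the groups. The log2 difference was -1.79 ± 0.18 (adjusted p = 0.000107), and it was called in all 17 alternatives. GH3.4 (AT1G59500) is 90.2% identical over most of the gene, so reads may have been split. GH3.3 (AT2G23170) had 7.08, 7.11, 8.84, 6.46 and 12.1 CPM in WT/cpd and 2.23, 2.92, 1.56, 5.11 and 3.37 CPM in cpd/cpd, without overlap (-1.47 ± 0.28, adjusted p = 0.00654).

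GH3.5 (WES1, AT4G27260) went from 42.9 ± 1.38 to 28.3 ± 5.92 CPM, a fall of 0.60 ± 0.13 (adjusted p = 0.0110). GH3.1 (AT2G14960) fell by 0.97 ± 0.21 at a low level, from 3.97 ± 0.82 to 2.01 ± 0.395 CPM (adjusted p = 0.0129). With IAA11, an Aux/IAA repressor named after its values were seen (-0.30, adjusted p = 0.0449), 5 of 22 auxin response genes fell and 0 rose. The share that fell was 22.7%, against 3.25% of all genes. The count was 4 to 6 when any 1 library was left out. The median of the list was -0.29, and 21 of 22 members lay below 0.

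Auxin response factors bind the element TGTCTC or TGTCGG in genes of this kind. Promoters of 3 GH3 genes that fell are shown because each holds a match, marked in capitals on either strand. They are again the 250 bases before the gene start in RefSeq TAIR10.1: GH3.2 (chr4:17579368-17579617, plus strand), GH3.3 (chr2:9866563-9866812, minus strand) and GH3.5 (chr4:13653329-13653578, plus strand). Each holds 1 match, 144, 116 and 47 bases before the start.
GH3.2: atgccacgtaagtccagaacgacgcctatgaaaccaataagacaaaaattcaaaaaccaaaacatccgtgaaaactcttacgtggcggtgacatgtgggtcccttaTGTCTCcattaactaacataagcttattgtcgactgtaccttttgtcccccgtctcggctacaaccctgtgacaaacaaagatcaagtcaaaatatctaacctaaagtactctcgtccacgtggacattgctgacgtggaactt
GH3.3: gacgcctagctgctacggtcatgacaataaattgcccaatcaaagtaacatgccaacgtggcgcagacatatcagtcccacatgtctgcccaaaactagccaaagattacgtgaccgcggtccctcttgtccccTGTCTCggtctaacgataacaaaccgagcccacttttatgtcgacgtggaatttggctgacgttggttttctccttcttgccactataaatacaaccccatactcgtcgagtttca
GH3.5: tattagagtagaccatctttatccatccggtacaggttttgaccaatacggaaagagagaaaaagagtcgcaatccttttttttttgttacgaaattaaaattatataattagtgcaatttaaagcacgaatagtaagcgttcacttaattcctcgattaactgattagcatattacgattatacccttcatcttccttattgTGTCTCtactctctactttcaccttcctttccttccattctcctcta

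The element was present in 3 of the 5 auxin response genes that fell, in 11 of the 22 tested and in 14.8% of all promoters. Those 3 are the genes shown, and GH3.1 and IAA11, which also fell, had no match in this window. Over all lower genes its share was 13.5%.

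Auxin synthesis genes fell in part, and 2 auxin transport genes changed. Of 7 tested synthesis genes 2 fell (28.6%, against 3.25% of all genes), and all 7 lay below 0, with a median of -0.47. YUC9 (AT1G04180), a flavin monooxygenase that makes auxin, had 15.2, 10.2, 11.2, 13.4 and 14.7 CPM in WT/cpd and 5.87, 6.59, 5.98, 3.64 and 5.62 CPM in cpd/cpd. Every WT/cpd library exceeded every cpd/cpd library (-1.22 ± 0.26, adjusted p = 0.0123). YUC6 also fell (-0.61 ± 0.16, adjusted p = 0.0383), with its call lost in 9 of 17 alternatives. PID (AT2G34650), the kinase PINOID that directs auxin efflux, fell by 0.96 ± 0.17 (adjusted p = 0.00459). The influx carrier LAX2 (AT2G21050) rose, from 48.8, 51.5, 53.0, 46.9 and 50.1 CPM in WT/cpd to 66.7, 62.5, 63.0, 68.9 and 69.5 CPM in cpd/cpd (0.40 ± 0.09, adjusted p = 0.0141). Of 14 transport genes these 2 were the only calls (14.3%, against 4.66% of all genes in either direction). Of 10 lateral root genes LBD16 alone fell (10%, against 3.25% of all genes), and it was called in 8 of 17 alternatives.

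**Figure D3:**
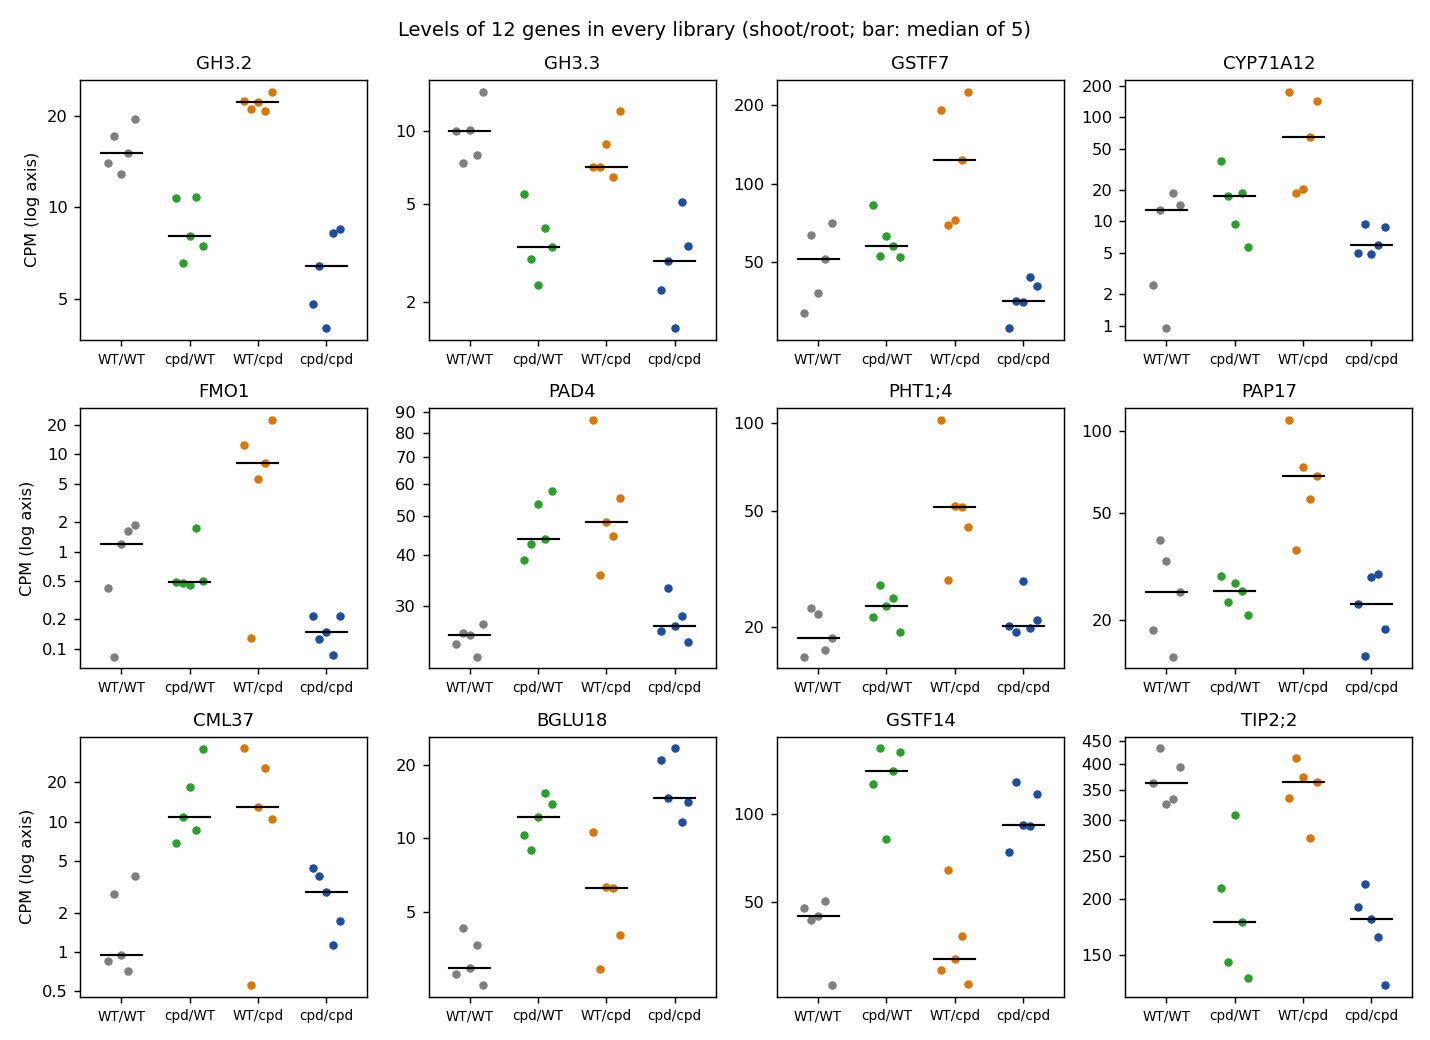
CPM (log axis) of 12 genes in every library of the 4 groups, named shoot/root, with 1 point per library and a bar at the group's median. GH3.2 lies between 20.8 and 24 CPM in WT/cpd and between 4.01 and 8.52 CPM in cpd/cpd, and BGLU18 and GSTF14 are higher under the cpd shoot on either root.

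The other large falls were spread over several families. AT2G18690, an uncharacterized protein, had 190.2, 26.4, 62.3, 98.6 and 91.6 CPM in WT/cpd and 20.7, 24.3, 22.3, 25.7 and 24 CPM in cpd/cpd (-2.0 ± 0.34, adjusted p = 0.00459). AT1G71140, a MATE efflux transporter, fell by 1.86 ± 0.33 (adjusted p = 0.00459), and AT2G41640, a glycosyltransferase that overlaps a neighbour, by 1.79 ± 0.36 (adjusted p = 0.00838). The VQ motif gene AT4G20000 fell by 1.58 ± 0.26 (adjusted p = 0.00355). IGMT4 (AT1G21130), which methylates indole glucosinolates and has a copy, AT1G21100, that is 91.6% identical over 50.2% of the length, fell by 1.54 ± 0.31 (adjusted p = 0.00855). These 5 genes were called in all 17 alternatives. The remaining 3 of the 12 largest falls were AT2G25460, the peroxidase AT1G49570 and the chitinase CHI (AT2G43570), at -1.88, -1.73 and -1.49. Their calls were lost in 5, 11 and 4 alternatives, each time including those without WT/cpd replicate 1, cpd/cpd replicate 1 and cpd/cpd replicate 3. Among indole glucosinolate genes 2 of 14 fell (14.3%, against 3.25% of all genes). They were the regulator MYB122 (AT1G74080, -1.72 ± 0.32, adjusted p = 0.00568) and CYP81F2.

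Genes of water relations, abscisic acid and ethylene fell in part. Aquaporins are water channels, and 3 of 21 tested members fell (14.3%, against 3.25% of all genes). The median of the list was 0.0018, and 11 members lay above 0 without a call, up to 0.68. TIP2;2 (AT4G17340), a channel of the vacuolar membrane, had 335, 412, 374, 274 and 365 CPM in WT/cpd and 192, 216, 180.3, 164 and 129 CPM in cpd/cpd (-1.0 ± 0.19, adjusted p = 0.00579). It was called in all 17 alternatives, whereas PIP2;3 (RD28) and PIP1B, of the plasma membrane, were called in 9 and 7. A copy of PIP2;3, AT2G37170, is 94.9% identical over 70.2% of the length, so reads may have been split between them. Of 27 genes of abscisic acid and dehydration response 7 lay above 0 without a call, up to 1.51, and 4 fell (14.8%). They were the bZIP factor ABF3 (AT4G34000, -0.45 ± 0.08, adjusted p = 0.00459), HB-12 (AT3G61890, -0.98 ± 0.21, adjusted p = 0.0135), and the phosphatases ABI1 (-0.63) and HAB1 (-0.29), which repress the hormone's signal. ABF3 and ABI1 each overlap a gene on the opposite strand. The adjusted p of ABI1 was 0.0116, and its call was lost when the 10 libraries were fitted alone (adjusted p = 0.0503). That of HAB1 was 0.0448, and its call was lost in 9 of 17 alternatives. Between 2 and 9 members of the list fell across the alternatives. Of 15 ethylene genes 2 fell (13.3%). One was EBF1, and the other, ACO4 (EFE, AT1G05010), which makes ethylene, had 123, 77.8, 98.8, 87.6 and 103 CPM in WT/cpd and 57.9, 67.8, 52.4, 67.5 and 58.8 CPM in cpd/cpd. The groups did not overlap (-0.69 ± 0.11, adjusted p = 0.00297). MYB41 (AT4G28110), a regulator of suberin, the corky lipid of root barriers, went from 4.93 ± 1.16 to 1.84 ± 0.538 CPM (-1.42 ± 0.25, adjusted p = 0.00459), while 19 of the 21 suberin genes were not called.

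Rises under a cpd shoot were fewer and smaller. Of the 12 largest, AT4G34950, a transporter of the major facilitator family, had 8.05, 5.91, 10.7, 12.2 and 10.4 CPM in WT/cpd and 17.3, 21.7, 19.9, 69.2 and 58.9 CPM in cpd/cpd. Replicates 4 and 5 of cpd/cpd were far above the other 3, and all 5 exceeded WT/cpd (1.97 ± 0.35, adjusted p = 0.00491, and 1.28 with sample weights in limma). ORA59 (AT1G06160), an ERF regulator of jasmonate and ethylene defence, had 5.14, 6.81, 5.14, 5.00 and 5.23 CPM in WT/cpd and 11.5, 11.8, 13.1, 14.7 and 13.9 CPM in cpd/cpd, with little spread in either group (1.25 ± 0.22, adjusted p = 0.00459). LAC3 (AT2G30210), a laccase, an enzyme class that polymerizes lignin, went from 80.7 ± 7.30 to 160.2 ± 25.2 CPM (0.99 ± 0.14, adjusted p = 0.00137). CYP78A5 (AT1G13710), a cytochrome P450 that prolongs organ growth, rose by 1.14 ± 0.20 (adjusted p = 0.00459).

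A pair of neighbouring ER body genes rose. ER bodies are stores of beta-glucosidase in Brassicaceae, and the family was chosen after its values were seen. Of 9 tested members 2 rose (22.2%, against 1.42% of all genes), 2 lay below 0, and the median was 0.25. The count of rises was 2 in 16 of 17 alternatives and 3 with sample weights. The summed level of the family overlapped between the groups, at 10420 to 14783 CPM in WT/cpd and 14318 to 16241 CPM in cpd/cpd. BGLU18 (AT1G52400), a beta-glucosidase that can free abscisic acid from its glucose ester, had 10.7, 2.91, 6.32, 6.26 and 4.0 CPM in WT/cpd and 21.0, 14.7, 23.4, 11.7 and 14.1 CPM in cpd/cpd (1.53 ± 0.27, adjusted p = 0.00459). TSA1 (AT1G52410), the neighbouring gene and an ER body component, had 55.7, 32.8, 38.9, 39.0 and 27.8 CPM in WT/cpd and 90.4, 71.4, 94.3, 76.1 and 69.8 CPM in cpd/cpd (1.06 ± 0.15, adjusted p = 0.00189). Both separated the groups without overlap.

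The rest of the 12 largest rises ranged from 0.94 for the phloem lectin gene PP2-A6 (AT5G45080) to 1.18 for EARLI1 (AT4G12480), a lipid transfer protein gene with an overlapping antisense gene. Between them lay the knottin gene AT2G43535 (1.02), the phosphorylase gene AT4G24350 (1.17, with overlapping genes) and a bZIP factor (AT1G68880, 0.97). EARLI1 was lost without WT/cpd replicate 3 (adjusted p = 0.0552) and without WT/cpd replicate 2 and cpd/cpd replicate 4 together (adjusted p = 0.0585). PP2-A6 was lost when the 10 libraries were fitted alone. DIN11 (AT3G49620), a dark-induced oxygenase, stood below the level set for that rule and had the largest rise among the genes named, from 0.214 to 1.66 CPM in WT/cpd to 3.25 to 15.7 CPM in cpd/cpd (3.03 ± 0.57, adjusted p = 0.00610). It was the single called gene of 17 carbon status markers (5.88%, against 4.66% of all genes called). XTH20 (AT5G48070), a wall-remodelling enzyme, rose by 1.05 ± 0.21 (adjusted p = 0.00760) and FLA12 (AT5G60490), a fasciclin-like protein of secondary walls, by 0.64 ± 0.13 (adjusted p = 0.00815).

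Several groups had few or no calls in edgeR. All 17 mitotic cyclin and CDKB genes and all 15 DNA replication genes had differences above 0, with medians of 0.30 and 0.26, but edgeR called 0 of either list, with 2 and 5 at an unadjusted p under 0.05. DESeq2 also called 0, and sample weights in limma called 9 and 10. The summed level of the mitotic list was 222 to 354 CPM in WT/cpd and 274 to 397 CPM in cpd/cpd, so the groups overlapped. In the secondary wall list 14 of 16 members were above 0 (median 0.31) and FLA12 was the 1 call. Photosynthesis genes, also the markers of shoot tissue, had 0 of 34 called in edgeR (3 at an unadjusted p under 0.05, 1 in DESeq2, 0 with sample weights), a median of 0.16, and summed levels of 2324 to 4731 CPM in WT/cpd and 3020 to 5517 CPM in cpd/cpd. All 10 tested heat shock genes lay below 0, with a median of -0.63. Of these, 0 were called in edgeR and DESeq2 (3 at an unadjusted p under 0.05 in edgeR) and 4 were lower with sample weights. Sugar transporters, sucrose-cleaving enzymes, nitrogen genes, expansins, root hair genes, the Casparian strip list and root meristem regulators had 0 members called in edgeR, with 0, 2, 3, 2, 2, 2 and 1 at an unadjusted p under 0.05. DESeq2 called 1 root meristem gene lower and 0 in the other 6 lists. Sample weights in limma called members of all 7, among them 5 Casparian strip genes and 3 root hair genes higher. Without cpd/cpd replicate 4, 2 Casparian strip genes and 1 root hair gene were higher and 1 root meristem gene was lower in edgeR, and without WT/cpd replicate 2, 1 expansin was lower. AMY3, an alpha-amylase, rose slightly (0.37 ± 0.09, adjusted p = 0.0182), in 13 of 17 alternatives, and GBSS1, of amylose synthesis, fell (-0.76), in 6.

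Single members were called in several other lists, and none of these lists had more than 2 calls. The iron deficiency regulator PYE (AT3G47640) fell (-0.55 ± 0.13, adjusted p = 0.0170), with the call lost without WT/cpd replicate 1. The clock gene LHY (-0.65), the gibberellin-inactivating GA2OX6 (-0.65) and the gibberellin receptor gene GID1B (-0.34) fell. So did IPT7 of cytokinin synthesis (-1.14), the F-box gene EBF1, which limits ethylene signalling (-0.44), BZIP60 of the unfolded protein response (-0.43) and FAR4 of suberin synthesis (-0.49). The sulfate transporter SULTR2;1 (0.82), the secondary wall regulator MYB46 (0.68), the abscisic acid receptor gene PYL5 (0.52) and POM1, a chitinase-like gene of cellulose synthesis (0.23), rose. Each of the 11 calls from LHY to POM1 was lost in at least 3 of the 17 alternatives. In the phloem list AT5G57130, a Clp domain gene, fell (-0.40).

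**Figure D4:**
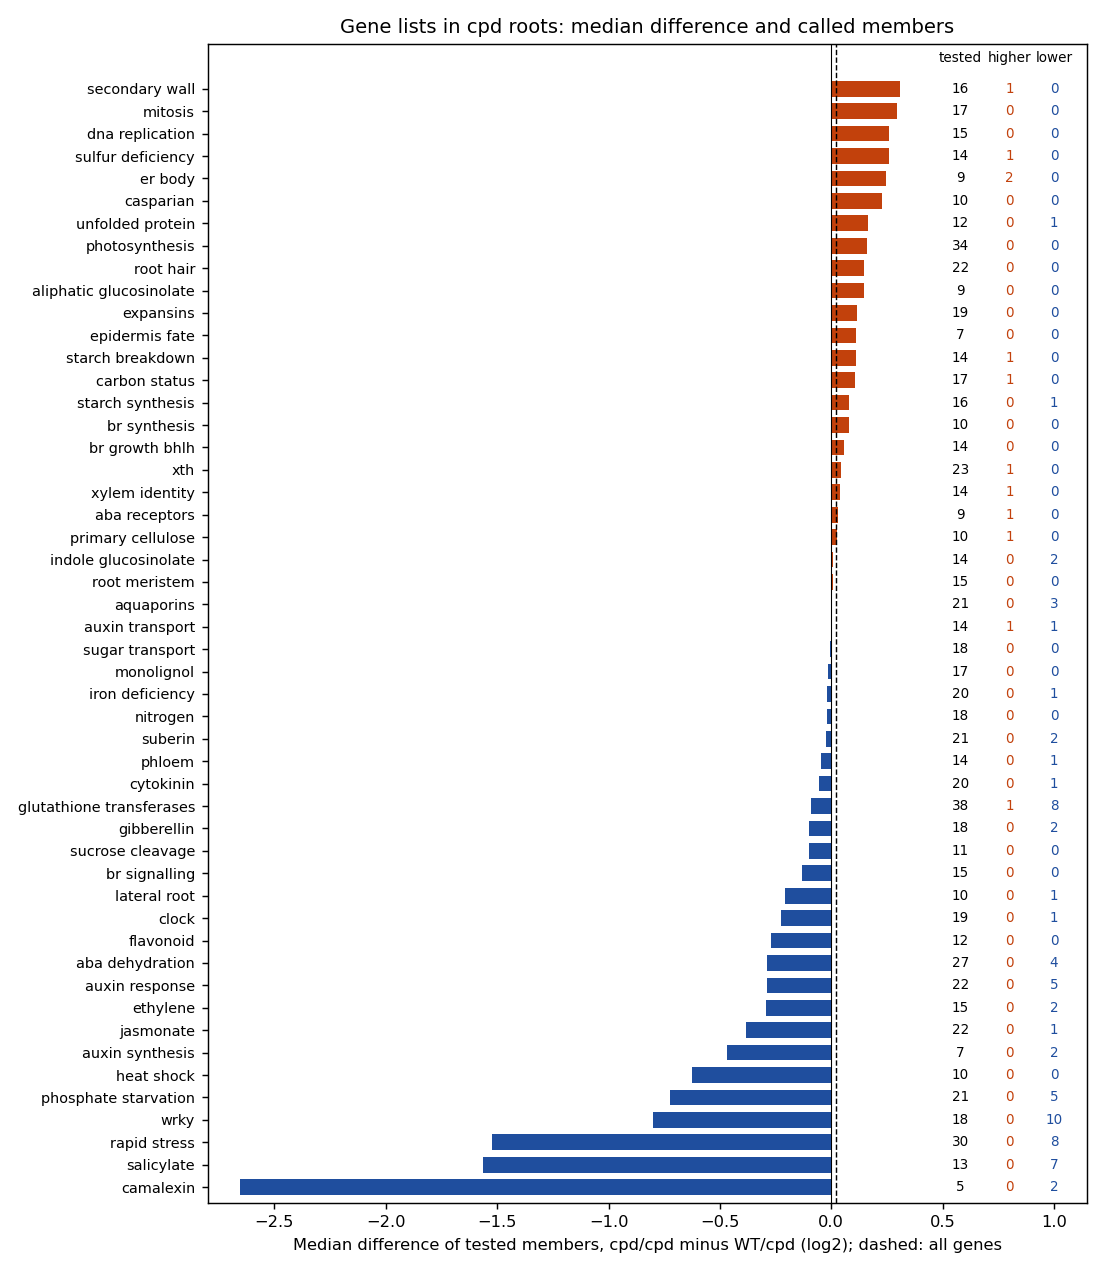
Median log2 difference between cpd/cpd and WT/cpd (horizontal axis) of the tested members of each gene list with at least 5, with the numbers tested, called higher and called lower at the right. The dashed line marks the median over all genes, 0.022, and the lists that lie lowest are camalexin, salicylate, rapid stress, WRKY and phosphate starvation.

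Brassinosteroid genes did not pass the edgeR test in any of their lists. Synthesis is held back by the hormone itself in Arabidopsis, so its genes report how much hormone a tissue senses. Of 10 synthesis genes, 4 inactivation genes and 15 signalling genes 0 were called in edgeR, with 1, 0 and 4 at an unadjusted p under 0.05, and the medians were 0.08, -0.23 and -0.13. DESeq2 called 1, 0 and 1 of them lower, and limma with sample weights 1, 1 and 2. DWF4 (AT3G50660), which catalyses the rate-limiting C-22 step, had 42.7, 34.9, 41.4, 57.3 and 43.1 CPM in WT/cpd and 44.8, 48.5, 43.1, 42.4 and 57.8 CPM in cpd/cpd (0.11 ± 0.15, adjusted p = 0.715). The groups overlapped widely. BR6OX2 (0.12 ± 0.14), BR6OX1 (0.12 ± 0.20), CYP90D1 (0.22 ± 0.11), ROT3 (0.05 ± 0.08) and DET2 (-0.03 ± 0.10), all of synthesis, and the receptor gene BRI1 (-0.13 ± 0.10) had adjusted p values from 0.248 to 0.904. The inactivating enzymes BAS1 (-0.28 ± 0.15) and SOB7 (-0.11 ± 0.09) were not called either. CPD transcript was -0.49 ± 0.15 (adjusted p = 0.0686). Of 17 alternatives 5 called it lower. The adjusted p was 0.0297 by DESeq2's test, 0.0170 when WT/cpd replicate 4 was left out, 0.0235 when cpd/cpd replicate 4 was, 0.0319 when both WT/cpd replicate 2 and cpd/cpd replicate 4 were, and 0.0148 with sample weights. CPD overlaps AT5G05680 on the opposite strand. RCI2B (AT3G05890), a membrane protein gene at 2033 CPM in WT/WT, lay between 64.4 and 109.8 CPM in the cpd roots under either shoot (0.18 ± 0.14, adjusted p = 0.464).

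The same shoot contrast was available on WT roots, in libraries that the cpd-root contrast does not share. There 1900 genes (9.11%) were called, 1296 higher (6.21%) and 604 lower under a cpd shoot. The count was 893, 1106 and 1206 without WT/WT replicate 1, WT/WT replicate 3 and cpd/WT replicate 4. A total of 199 genes were called on both roots, which is 20.5% of the calls on a cpd root and 10.5% of those on a WT root. Of these 66 were higher on both, 29 were lower on both, 95 were lower on a cpd root but higher on a WT root, and 9 were the reverse. The interaction, which tests whether the shoot contrast differs between the roots, was called for 1613 of all genes tested (7.73%), and was negative for 1133 of them (5.43%). It was called for 430 of the 677 genes lower on a cpd root (63.5%) and for 84 of the 296 higher (28.4%). Because the interaction contains the cpd-root contrast, these last shares are not independent of the calls they are counted in.

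Some of the auxin and water channel genes that fell did so on both roots. GH3.3 had a mean of 9.97 CPM in WT/WT and 3.64 CPM in cpd/WT, a difference of -1.44 (adjusted p = 0.00575), with an interaction of -0.03 (adjusted p = 0.974). GH3.5 and GH3.1 also fell on both roots (-0.54 and -0.93 on a WT root, adjusted p = 0.0152 and 0.0128). GH3.2 fell on a WT root by 0.84, from 15.7 to 8.75 CPM (adjusted p = 0.0102), and its fall was larger on a cpd root (interaction -0.95, adjusted p = 0.0270). TIP2;2 fell by 0.92 on a WT root (adjusted p = 0.00716, interaction -0.07, adjusted p = 0.893).

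Among the rises, BGLU18 and TSA1 rose on a WT root too, by 1.91 and 1.53 (adjusted p = 0.00150 and 6.73e-05). GSTF14 rose there by 1.67 (adjusted p = 0.00150). The interaction was not called for any of the 3 (adjusted p = 0.577, 0.186 and 0.661). DIN11 was not called on a WT root (-0.38, adjusted p = 0.711), and its interaction was called (3.41, adjusted p = 0.0127).

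Rapid stress genes went the opposite way on the other root. On a WT root 25 of 30 rapid stress regulators rose under a cpd shoot, against 6.21% of all genes, with a median of 1.73. The interaction was called for 29 of the 30, against 7.73% of all genes. CML37 went from 1.82 CPM in WT/WT to 16.1 CPM in cpd/WT (3.19, adjusted p = 0.0151), and its interaction was -5.78 ± 1.02 (adjusted p = 0.00461). The median summed level of the rapid stress list was 699.9 CPM for WT/WT, 2312 CPM for cpd/WT, 2902 CPM for WT/cpd and 998 CPM for cpd/cpd. Medians were therefore highest in the groups whose shoot and root differed in genotype, but ranges overlapped. They were 1219 to 3630 CPM in cpd/WT and 758 to 4078 CPM in WT/cpd. In WT/WT the range was 535 to 1149 CPM, and in cpd/cpd it was 657 to 1571 CPM. Only WT/WT and cpd/WT did not overlap. PAD4 rose on a WT root by 0.92 (adjusted p = 0.00497) and had an interaction of -1.87 (adjusted p = 0.00265). For salicylate genes the interaction was called in 8 of 13 and for WRKY genes in 11 of 18, all negative. Over all genes 5.43% had a called negative interaction.

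The most negative interactions among genes of at least 3 on the mean log2 CPM scale were those of RRTF1 (AT4G34410, -6.89 ± 1.66), CML37 and CBF2 (AT4G25470, -5.63 ± 1.13), with adjusted p = 0.0166, 0.00461 and 0.00708. RRTF1 and CBF2 encode ERF family regulators of redox and cold responses. Neither was called on a cpd root alone, where RRTF1 ranged from 0.129 to 84.5 CPM in WT/cpd. The most positive interactions were those of AT4G34950 (2.24), the gibberellin-regulated family gene AT5G14920 (1.43) and the RING/U-box gene AT4G24015 (1.36), with adjusted p = 0.00960, 0.0146 and 0.0348.

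FMO1, PHT1;4 and PAP17 were not called on a WT root (-0.45, 0.29 and -0.05, adjusted p = 0.780, 0.474 and 0.937). Their interactions were called (adjusted p = 0.0138, 0.00708 and 0.0214). PHT1;4 had means of 19.2, 23.4 and 21.8 CPM in WT/WT, cpd/WT and cpd/cpd, against 55.8 CPM in WT/cpd. Without WT/cpd replicate 1 the 1613 interaction calls dropped to 1060, and they were 1067 without cpd/cpd replicate 5 and 1050 without WT/WT replicate 1.

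**Figure D5:**
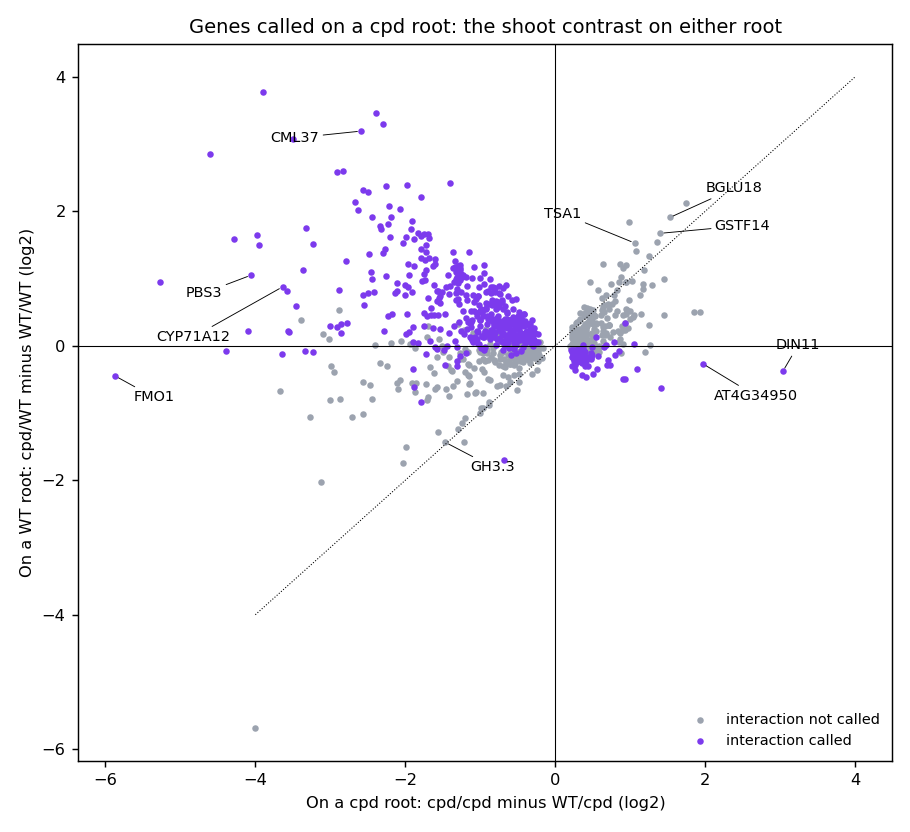
Shoot contrast on a WT root (vertical axis, log2) against that on a cpd root (horizontal axis, log2) for the 973 genes called on a cpd root, with the dotted line at equal differences. Genes with a called interaction (purple) fill the upper left, where CML37 and PBS3 lie, and BGLU18, GSTF14, TSA1 and GH3.3 lie near the dotted line.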

How the data were processed

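RNA-seq libraries of 20 pools of 3 whole roots were made with the RNeasy Plant Mini Kit and a directional library kit, per the labels' protocols. STAR and TAIR10 are named in the submitters' processing notes, and neither a counting tool nor a strand setting is named there. The values are raw counts for each gene code, as deposited by the authors, in 1 table whose 20 sample columns all matched a label. The labels do not say that replicates are separate cultures, so p-values reflect only how these pools varied, which may be partly technical.

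Counts were filtered with filterByExpr, scaled by TMM and fitted with 1 mean per group over all 20 libraries in edgeR 4.0.16 (R 4.3.3, robust quasi-likelihood test, Benjamini-Hochberg adjustment, called under 0.05). CPM used TMM-scaled library sizes. DESeq2 1.42.0, limma 3.58.1, other filters and left-out libraries served as alternatives, and the calling script was tested on simulated data. Replicate pairs within groups differed by 6.00 to 51.9 times the sampling noise (chi-square per degree of freedom over 20 pairs), so none was counted as 1 sample.

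Named genes were the 12 largest rises and falls among called genes with mean log2 CPM of at least 3 and groups that did not overlap, up to 4 called members of each list by smallest adjusted p, brassinosteroid genes and RCI2B, and the 3 most positive and negative interactions. The comparison and the lists were chosen with earlier results of these data known, and the ER body and glutathione transferase families after values were seen. Of 830 list entries 11 were dropped for a locus that carries a different name in the reference. Promoters come from RefSeq TAIR10.1.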

Additional observations from a re-analysis of the deposited data

Results flagged for a closer look

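In 14 of 206 groups of 5 libraries examined, 1 library stood apart from the other 4 by Dixon's criterion, where chance gives about 1 in 20, or 10.3. cpd/cpd replicate 3 stood apart in PHT1;4 at 28.7 CPM. WT/cpd replicate 2 stood apart in ORA59 at 6.81 CPM. cpd/cpd replicate 4 stood apart in XTH20 at 14.3 CPM, PIP2;3 at 171 CPM, LBD16 at 5.20 CPM, BZIP60 at 38.3 CPM and BR6OX2 at 34.6 CPM. WT/cpd replicate 5 stood apart in AMY3 at 43.0 CPM. WT/cpd replicate 1 stood apart in PPSPASE1 at 89.4 CPM. WT/cpd replicate 4 stood apart in CPD at 2.68 CPM, BR6OX2 at 62.1 CPM, BR6OX1 at 9.14 CPM and AT5G57130 at 43.9 CPM. The summed level of the photosynthesis list stood apart in cpd/cpd replicate 4, at 5517 CPM.

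The shoot contrast differed between cpd and WT roots, by the interaction term in edgeR, for 50 of the 96 genes named by the rule, against 7.73% of all genes. That share is no independent result, since 82 of the 96 were called in the cpd-root contrast that the interaction contains and 6 were chosen for the most extreme interactions. The most negative values were those of RRTF1 (-6.89), CML37 (-5.78), CBF2 (-5.63), FMO1 (-5.41), PBS3 (-5.11), CYP71A12 (-4.51) and GSTU12 (-4.31). Less negative values were found for AT1G49570 (-3.23), PPSPASE1 (-3.18), AT2G41640 (-3.10), AT2G25460 (-3.07), AT2G18690 (-2.90), PBP1 (-2.82), ZAT11 (-2.76), JAZ1 (-2.51) and CBP60G (-2.41). Below these in size lay ZAT12 (-2.31), AT4G20000 (-2.25), GSTF7 (-2.18), CZF1 (-2.01), PAD4 (-1.87), IGMT4 (-1.79), PHT1;4 (-1.64), MYB41 (-1.61), WRKY22 (-1.60), MYB122 (-1.59), GA2OX6 (-1.55) and PAP17 (-1.53). Smaller negative interactions were those of IPT7 (-1.47), WRKY28 (-1.40), YUC9 (-1.39), GSTU10 (-1.28), CYP81F2 (-1.24), LHY (-1.14), PID (-1.08), WRKY45 (-1.03), ABI1 (-1.02), ACO4 (-1.01), GH3.2 (-0.95), PAD3 (-0.95), WRKY6 (-0.65), ABF3 (-0.37) and ROT3 (-0.37). Positive interactions, a difference that was more positive on a cpd root, were those of DIN11 (3.41), AT4G34950 (2.24), AT5G14920 (1.43), AT4G24015 (1.36), XTH20 (1.01), FLA12 (0.67) and LAX2 (0.50). All values are on the log2 scale.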

How the results depend on the processing

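For the 82 called genes named, 1181 of 1393 results under alternatives kept call and direction and 212 lost the call, and 47 of the 82 were called in every alternative. Of 238 results for the 14 genes not called, 10 gained a call and 4 changed sign without one. With 1 library left out ROT3 ranged from -0.0134 to 0.0808 and DET2 from -0.112 to 0.0104, and DET2 was 0.0243 without WT/cpd replicate 2 and cpd/cpd replicate 4 and 0.0215 with sample weights. The 973 calls on a cpd root became 1666 with the DESeq2 Wald test, 500 when the 10 libraries were fitted alone and 4272 with limma and sample weights, and 449 to 1250 when 1 library was left out. All 973 genes were among the 1666, and 445 among the 500. Calls with a log2 difference of 1 or more, 322 in edgeR, were 155 in the 10 libraries alone and 159 to 526 with 1 library left out. Leaving out 1 library gave 893 to 1777 calls on a WT root (264 to 452 of at least 1, against 468) and 1050 to 2407 for the interaction (504 to 831, against 691). Without WT/cpd replicate 2 and cpd/cpd replicate 4 together there were 1171 calls. DESeq2's size factors moved the median difference from 0.022 to 0.0089. The causes, library depth among them, were not tested.

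After each gene's group mean was taken off, same-numbered libraries of WT/cpd and cpd/cpd correlated across genes at 0.23, -0.15, -0.23, -0.49 and 0.08. Replicate 1 of each group matched replicate 1 of the other best, but not every library matched its own number best. Whether the replicate numbers pair the samples was not tested. With the replicate number as a block 650 genes were called, 191 higher and 459 lower.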
